A study of Homo sapiens with 6 samples.

Results

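Zinc finger genes crowd the long arm of human chromosome 19. The genes described here are the protein-coding ones among them whose symbol is ZNF and a number, with or without a letter after it. With a start at or beyond position 26000000 of GRCh38, 164 such genes were found in GENCODE release 29, after 2 readthrough symbols were left out. Of these, 140 had a count of 10 or more in at least 3 of the 6 libraries and are called members below, and all 140 were tested. They stand among 16240 genes of the whole table that reached the same floor. Read counts chose the members, so their presence at this floor is a description and not a finding.

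The libraries came from HCT-8, a human colorectal cancer cell line. Each group held 3 libraries of cells transfected with a plasmid. The shNC cells received a plasmid with a control hairpin, and the shPNISR cells received one with a short hairpin RNA against PNISR, a protein rich in serine and arginine that partners the splicing factor PNN. Both groups therefore carry a hairpin plasmid, and 1 targeting hairpin is named in the labels, with no second hairpin to set beside it. The study asks how PNISR acts on alternative splicing in colorectal cancer, while the values here are reads per gene and say nothing on isoforms. The labels do not say whether libraries of a group came from separate cultures, so a p-value reflects no more than the spread of these samples, which may be technical. In bulk RNA, fewer cells that express a gene and less of its RNA per cell cannot be told apart.

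Most genes of this kind encode proteins with an array of C2H2 fingers, each finger a short fold that holds a zinc ion and contacts DNA, and many carry a KRAB domain at the other end. KRAB domains recruit the corepressor TRIM28 (KAP1), which brings the histone methyltransferase SETDB1 and heterochromatin proteins, and many targets are sequences of transposable elements. The genes arose by repeated tandem duplication, which left them in clusters of near relatives on chromosome 19.

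Total counts ranged from 15049485 to 17977803 per library. PNISR itself, which checks the labels, was at 55.3, 50.2 and 62.8 CPM (counts per library total, scaled with TMM factors) in shNC and at 18.5, 20.6 and 27.6 CPM in shPNISR. It fell, to 39.7% of the level in shNC (log2 fold change -1.33 ± 0.15 SE, edgeR quasi-likelihood test, adjusted p = 8.73e-05). The shNC 2 library stood apart from its group, at 0.787 on the first principal component against -35.2 and -31.2 for shNC 1 and 3 and 16.9 to 24.6 for shPNISR, so results that rest on it are given with and without it. Of 10 colon epithelium markers 8 were tested, among them KRT8 at 2239 CPM in shNC, while KRT20 and CEACAM5 were near 0 (0.123 and 0.0432 CPM). In the comparison below, 7 of these 8 had fitted values above 0 (median 0.24), while CDX1, an intestinal transcription factor, fell from 7.04 ± 0.545 to 3.39 ± 0.396 CPM (edgeR, adjusted p = 0.00798). The list's summed level ran from 4052 to 4497 CPM in shNC and from 4340 to 5489 CPM in shPNISR, and its part in the members' values was not tested. PTPRC, which marks leukocytes, and COL1A2, which marks fibroblasts, had 0 reads in every library.

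In the order of the chromosome the 164 genes formed 11 clusters, numbered here from the centromere and separated by more than 1 Mb. A total of 4 clusters held 20 or more members. Cluster 4 spans positions 36182060 to 37817300 and held 27 genes, 25 of them members. Cluster 7 (43525497 to 45076588) held 24 genes and 21 members, and cluster 10 (51571298 to 53580269) held 39 genes and 29 members. Cluster 11 (55476332 to 58481230), near the end of the arm, held 59 genes and 51 members. The other 7 clusters held 14 members in all.

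Most of the 24 genes below the floor lay in the largest clusters, 10 (10 of 39 genes) and 11 (8 of 59). Cluster 4 held 2 of 27 and cluster 7 held 3 of 24. No library reached a count of 10 for 21 of the 24, and 11 had 0 reads in all 6 libraries, among them ZNF677, ZNF415, ZNF610, ZNF347 and ZNF665 of cluster 10 and ZNF671, ZNF667 and ZNF835 of cluster 11 (named after their values were seen). These genes lie among expressed members of the same clusters. Just outside the floor stood ZNF223, with counts of 11, 12 and 8 in shNC and 9, 9 and 4 in shPNISR, and ZNF528, with 6, 14 and 7 against 7, 1 and 4. Just inside stood ZNF114, with 9, 10 and 14 against 11, 9 and 12, and ZNF404, with 6, 10 and 10 against 11, 10 and 6. In 132 members every library was at the floor. Among the other 8, ZNF525 passed only through shNC, where all 3 libraries reached 10 while no shPNISR library did (22, 11 and 14 against 5, 9 and 8 reads).

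Levels were low. Per kilobase of exon, the median member was at 1.20 CPM in shNC, against 4.18 CPM per kilobase over all tested genes, and 59 members were under 1 CPM per kilobase. Only 11 members reached 5 CPM per kilobase. ZNF428 of cluster 7, with 1 match to a C2H2 finger in its longest protein, led at 36.0 ± 4.70 CPM per kilobase (SD, n = 3), and its antisense neighbour SRRM5 overlaps its exons. ZNF146, a gene of cluster 4 that encodes fingers and little else, followed at 20.2 ± 0.538, and ZNF581 of cluster 11 at 19.7 ± 5.10 CPM per kilobase. The intervals of ZNF146 and ZNF581 overlap, so their order is not settled. ZNF581 shares exons with ZNF580 and CCDC106, and 16.9% of its 64-base words recur in other genes.

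The leading gene of every other cluster stood far lower. ZNF526 led cluster 6 at 5.91 ± 0.689 CPM per kilobase, ZNF473 cluster 9 at 4.24 ± 0.345 and ZNF507 cluster 2 at 3.03 ± 0.226. ZNF574, the other member of cluster 6, was at 5.78 ± 0.562, so the order of ZNF526 and ZNF574 is not settled. ZNF473 encodes a protein of histone pre-mRNA processing. ZNF320 led cluster 10 at 2.57 ± 0.299, ZNF30 cluster 3 at 2.21 ± 0.197 and ZNF780A cluster 5 at 1.43 ± 0.322 CPM per kilobase. The interval of ZNF30 overlaps those of ZNF792 (1.87 ± 0.235) and ZNF302 (1.82 ± 0.255) in its cluster. Clusters 1 and 8, each with a lone member, were led by ZNF536, known as a repressor in neuronal differentiation, at 0.618 ± 0.0981, and ZNF114 at 0.231 ± 0.0739 CPM per kilobase. The counts behind ZNF320 are uncertain, since 73.7% of its 64-base words recur in other genes and its exons overlap those of ZNF468.

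The comparison of shPNISR with shNC asks how these genes stand when PNISR is lowered. The members' RNA was lower as a group: their summed level was 1430, 1355 and 1408 CPM in shNC and 1264, 1249 and 1317 CPM in shPNISR. Every shPNISR sum lay under every shNC sum. The mean was 1397 ± 38.2 CPM in shNC and 1276 ± 35.6 CPM in shPNISR (SD, n = 3 each). Single genes passed the test rarely. By edgeR's quasi-likelihood test with adjustment over all 16102 tested genes, 1 member fell and 0 rose, against a background of 0.832% of tested genes lower and 2.3% higher. At an unadjusted p under 0.05 there were 30 members lower and 0 higher, or 21.4% lower against 7.79% of all tested genes lower and 9.98% higher. DESeq2 called 5 members lower, against 1.43% of all genes lower and 2.95% higher. Limma voom called 2 lower, against 0.708% lower and 2.42% higher, and neither tool called any member higher.

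Most members had values below 0. Fitted log2 fold changes were below 0 in 114 of 140, or 81.4%, against 52.1% of all tested genes, and their median was -0.23 against -0.01. In 41 members every shPNISR library lay below every shNC library, which is 29.3% against a background of 9.58%. In 4 members (ZNF296, ZNF579, ZNF787 and ZNF497) every shPNISR library lay above, which is 2.86% against 11.5%. Restricted to the 132 members at the floor in every library, the median was -0.23, 109 were below 0 and 37 were lower without overlap. The members were picked with earlier results in view, so these counts describe them and carry no test.

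ZNF470 (ENSG00000197016) is the member that fell. It lies on the plus strand of chromosome 19 at 56567511 to 56588911 in cluster 11, has a KRAB match and 17 finger matches, and overlaps no exon of another gene. Its level was 6.79, 7.06 and 5.20 CPM in shNC 1 to 3 and 2.72, 3.29 and 3.62 CPM in shPNISR 1 to 3. All 3 shPNISR libraries were below all 3 shNC libraries. The fitted log2 fold change was -0.98 ± 0.22 (SE), so shPNISR held 50.5% of the control level (edgeR, adjusted p = 0.0203). That call ended in 5 of 18 alternatives: without shNC 1, without any 1 of the 3 shPNISR libraries, and with a GC and length correction plus replicate block (adjusted p from 0.00324 to 0.147 over the 18).

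The next members by p-value missed the threshold and are given as values (ZNF260 was named after its value was seen). ZNF260 (ENSG00000254004), in cluster 4, was at 15.2, 14.4 and 15.1 CPM in shNC and 6.93, 8.87 and 12.02 CPM in shPNISR. The groups did not overlap, and shPNISR 3 was the nearest to the controls. Its log2 fold change was -0.68 ± 0.19 (edgeR, adjusted p = 0.0551), with adjusted p = 0.0239 by DESeq2 and 0.0490 by limma voom. ZNF850, a neighbour in the same cluster whose protein has 29 finger matches, the most of any member, was at 6.24, 4.79 and 7.26 CPM against 3.14, 3.41 and 3.86 CPM. Here shNC 2 was the lowest control, still above every shPNISR library. Its log2 fold change was -0.81 ± 0.23 (edgeR, adjusted p = 0.0572).

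ZNF234, in cluster 7, was at 9.55, 6.34 and 8.92 CPM in shNC and 4.03, 4.03 and 6.13 CPM in shPNISR. The lowest control, shNC 2, and the highest knockdown library, shPNISR 3, almost touched. Its log2 fold change was -0.81 ± 0.23 (edgeR, adjusted p = 0.0598). ZNF780A, in cluster 5, was at 12.4, 8.48 and 13.3 CPM against 6.04, 6.57 and 8.34 CPM, again with shNC 2 and shPNISR 3 nearest to each other. Its log2 fold change was -0.71 ± 0.20 (edgeR, adjusted p = 0.0656). ZNF836, in cluster 10, rests on few reads, 33, 17 and 30 in shNC against 9, 12 and 14 in shPNISR. The groups did not overlap, and its log2 fold change was -1.20 ± 0.37 (edgeR, adjusted p = 0.0867). ZNF284 of cluster 7 was at 1.93, 1.30 and 2.20 CPM against 0.770, 1.05 and 1.35 CPM, with overlap between the groups, and 43.0% of its 64-base words recur in other genes.

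At the other end, no member passed. The highest fitted values among members with a mean of at least 1 CPM were those of ZNF841 (0.31 ± 0.26), ZNF524 (0.27 ± 0.17), ZNF837 (0.26 ± 0.23), ZNF628 (0.22 ± 0.19) and ZNF497 (0.22 ± 0.24). ZNF841 was at 3.04, 3.37 and 2.20 CPM in shNC and 3.79, 2.67 and 4.23 CPM in shPNISR, so the groups overlapped. When libraries were corrected for GC content and length, ZNF628 and ZNF837 turned to values below 0 (-0.05 and -0.03). Among abundant members, ZNF146 was at 82.3, 82.6 and 86.3 CPM against 69.3, 79.1 and 87.2 CPM, and ZNF428 at 60.3, 59.8 and 74.7 CPM against 69.9, 86.3 and 62.9 CPM. Both overlapped between groups. Under the same correction with all 6 libraries, ZNF428 changed sign (-0.04) while ZNF146 stayed below 0 (-0.02). With shNC 2 left out as well, ZNF146 was at 0.01.

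**Figure D1:**
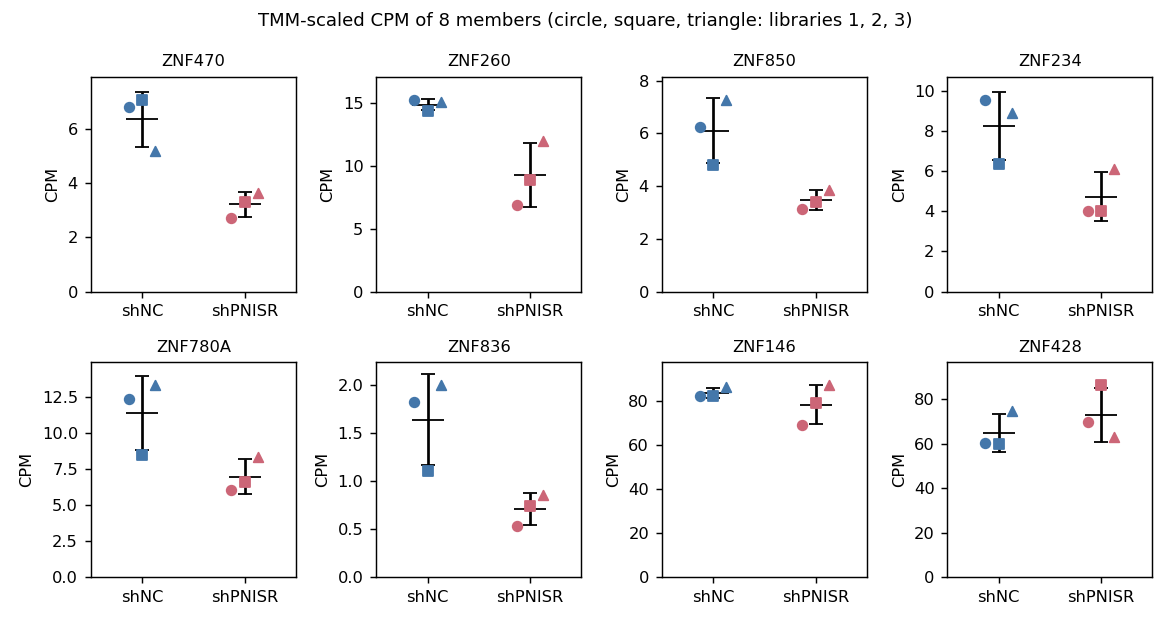
TMM-scaled CPM of the 6 members with the smallest p and of the abundant ZNF146 and ZNF428, each vertical axis starting at 0. Circles, squares and triangles are libraries 1, 2 and 3 of a group, the wide dash is the mean and the bars are ± SD (n = 3). In the first 6 genes every shPNISR library lies below every shNC library, and in ZNF146 and ZNF428 the groups overlap.

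Among the 4 clusters of 20 or more members, clusters 4 and 10 had the largest shares of values below 0 before any GC correction. In cluster 4, all 25 members had fitted values below 0, with a median of -0.38, and in 10 (40.0%) shPNISR was lower without overlap, against 9.58% of all tested genes. The cluster's summed level was 223, 222 and 228 CPM in shNC and 168, 183 and 211 CPM in shPNISR. Those sums did not overlap, and shPNISR 3 was again nearest to the controls. Besides ZNF260 and ZNF850 the cluster holds ZNF461 (-0.75 ± 0.25), ZNF382 (-0.58 ± 0.24), ZNF568 (-0.38 ± 0.26), known for repressing a placental Igf2 promoter in mice, and ZNF146 (-0.09 ± 0.11). None of these passed, and those not named by rule were chosen after their values were seen.

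Of the 29 members of cluster 10, 26 were below 0, with a median of -0.33, and in 14 (48.3%) shPNISR was lower without overlap, against 9.58% of all tested genes. Without ZNF525, which reached the floor only through shNC, 25 of 28 were below 0, the median was -0.31 and 13 were lower without overlap. The summed level was 198, 186 and 185 CPM in shNC against 139, 148 and 167 CPM in shPNISR, again without overlap. ZNF808, known as a repressor of MER11 elements, was at 1.55, 1.55 and 1.07 CPM against 0.711, 0.186 and 0.736 CPM (-1.34 ± 0.43, edgeR, adjusted p = 0.0994). ZNF616 was at 10.8, 9.78 and 8.99 CPM against 6.81, 6.95 and 6.32 CPM (-0.56 ± 0.18, edgeR, adjusted p = 0.0956). Both kept the groups apart, on very different numbers of reads. ZNF320, the most abundant member per kilobase in the cluster, was at 22.9, 18.5 and 22.8 CPM against 16.1, 12.2 and 17.0 CPM (-0.50 ± 0.16). ZNF350, which encodes the BRCA1 partner ZBRK1, stood at 0.01 ± 0.35, and ZNF331, an imprinted gene, at -0.47 ± 0.33.

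Clusters 7 and 11 were mixed in these uncorrected values. In cluster 7, 13 of 21 members were below 0 (median -0.13), in 4 of the 21 shPNISR was lower without overlap and in 1 it was higher, against 9.58% and 11.5% of all tested genes. Its sums overlapped, at 198, 178 and 212 CPM against 176, 199 and 187 CPM. ZNF224, a KRAB repressor known for acting on the aldolase A gene, stood at -0.20 ± 0.21 there. Cluster 11 had 38 of 51 members below 0 (median -0.14), with 12 lower (23.5%) and 3 higher (5.88%) without overlap, against 9.58% and 11.5% of all tested genes. Median GC content of the members' transcripts was 39.5%, 42.5%, 41.5% and 46.4% in clusters 4, 7, 10 and 11. After the GC and length correction 23 of 25, 14 of 21, 23 of 29 and 41 of 51 were below 0. Their medians were then -0.27, -0.07, -0.21 and -0.18.

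Cluster 11 itself was split by position. The first 9 members, ZNF628 to ZNF444, had 7 values above 0 and a median of 0.15, and none of them matched the KRAB pattern. The remaining 42, ZNF582 to ZNF446, had 36 values below 0 and a median of -0.24, and 35 matched. This division was drawn after the values were seen. The median GC content of the transcripts was 64.9% in the first block and 45.9% in the second. After the GC and length correction the medians were -0.05 and -0.21. In those corrected values 7 of 9 members (77.8%) and 34 of 42 (81.0%) were below 0. ZNF787 of the first block was at 62.7, 63.1 and 66.3 CPM in shNC and 80.4, 73.6 and 69.2 CPM in shPNISR, every shPNISR library above every shNC library (0.22 ± 0.11, edgeR, adjusted p = 0.322). ZNF274, which is known to bind ZNF genes and recruit SETDB1, lies in the second block at 0.01 ± 0.15.

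**Figure D2:**
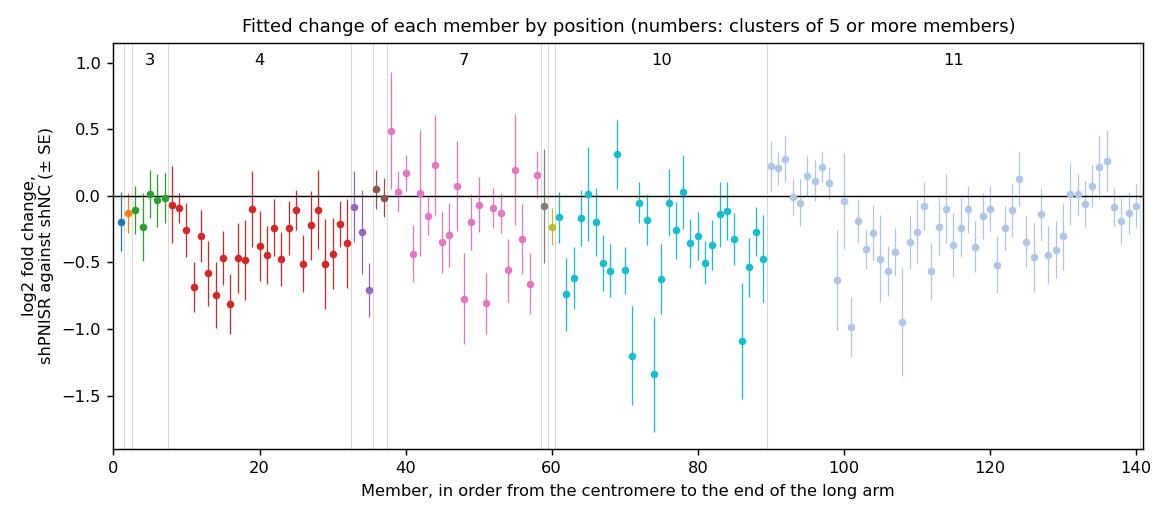
Fitted log2 fold change (shPNISR against shNC) of the 140 members with its standard error, in order along the long arm. Colours and grey lines separate the 11 clusters, and those with 5 or more members are numbered. All 25 points of cluster 4 lie below 0, and the first 9 of cluster 11 lie mostly above it. Values are those before the GC and length correction.

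The libraries carried these shifts unequally. The median member shifted by -0.28, -0.30 and -0.18 in log2(CPM + 0.5) in shPNISR 1, 2 and 3, measured from the mean of shNC 1 and shNC 3, and by -0.08 in shNC 2. Over all tested genes the same medians were within 0.012 of 0 in every library. Cluster 10 stood at -0.50, -0.30 and -0.20 in the shPNISR libraries and cluster 4 at -0.38, -0.42 and -0.18. Cluster 11 stood at -0.08, -0.24 and -0.18, and shNC 2 (-0.07) lay beside shPNISR 1 there. Thus shNC 2, which lies between the groups over the whole table, was nearer to the other controls in clusters 4 and 10.

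**Figure D3:**
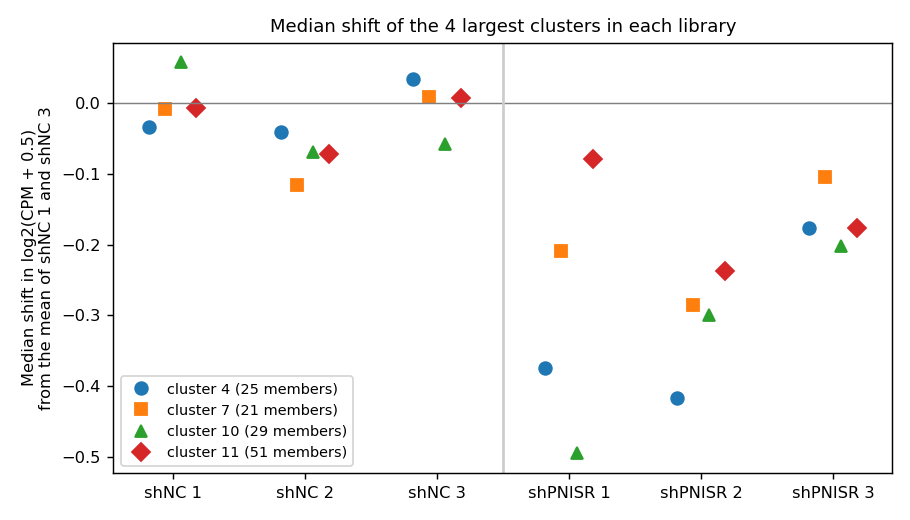
Median shift of each of the 4 largest clusters in each library, in log2(CPM + 0.5) from the mean of shNC 1 and shNC 3, with points set side by side within a library. Clusters 4 and 10 reach -0.42 and -0.50 in shPNISR libraries, and in shNC 2 no cluster is lower than -0.12.

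Without shNC 2, 13 members fell by edgeR (ZNF180, ZNF234, ZNF260, ZNF320, ZNF470, ZNF543, ZNF551, ZNF577, ZNF587B, ZNF616, ZNF780A, ZNF836 and ZNF850) and 0 rose. That is 9.29% of the members, against 4.52% lower and 7.78% higher over all genes tested in that fit. Their median was then -0.27 with 115 below 0. Leaving out shNC 1, shPNISR 1 or shPNISR 2 gave 0 members lower, against 0.28%, 0.183% and 0.361% of all genes. Without shNC 3 there were 2 lower (ZNF260 and ZNF470, against 1.34% of all genes), and without shPNISR 3 there was 1 (ZNF260, against 0.444%).

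Zinc finger genes elsewhere in the genome also had mostly values below 0. On the short arm of chromosome 19, 52 such genes were tested, with a median of -0.24 and 38 below 0, and 1 fell. On other chromosomes 233 were tested, with a median of -0.19 and 192 below 0 (82.4%), and 2 fell and 1 rose. The 390 other protein-coding genes tested on the long arm of chromosome 19 went the other way, with a median of 0.15, 99 below 0 (25.4%), 0 lower and 22 higher. Their groups failed to overlap with shPNISR higher in 106 cases (27.2%) and lower in 16 (4.1%), against 11.5% and 9.58% of all tested genes. Of all tested genes, 0.832% fell and 2.3% rose. ZNF genes of the short arm were lower without overlap in 30.8% and those on other chromosomes in 16.3%, against 29.3% of members. After the GC and length correction the ZNF medians were -0.14 on the short arm, -0.18 on other chromosomes and -0.15 for members. No test of the difference between these sets was made.

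**Figure D4:**
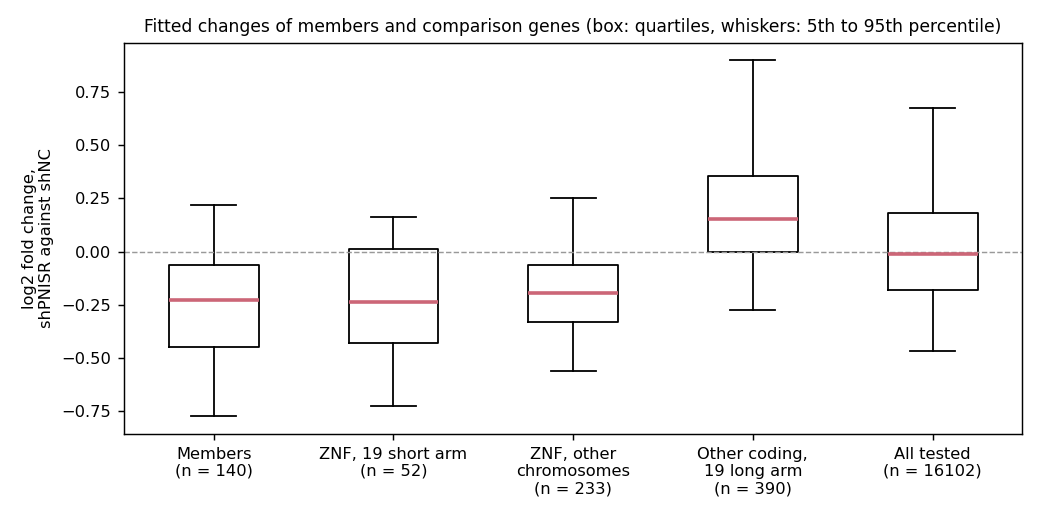
Fitted log2 fold changes of the members, of ZNF genes on the chromosome 19 short arm and on other chromosomes, of other protein-coding genes of the long arm and of all tested genes. Boxes are quartiles with the median in red, and whiskers reach the 5th and 95th percentiles. The medians of the ZNF sets lie between -0.24 and -0.19, and that of the other long-arm genes at 0.15.

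GC content moved with the values. Across the 140 members the Spearman correlation of log2 fold change with the GC content of the longest transcript was 0.487, and across 15989 tested genes it was 0.392. These are descriptions across genes, which share libraries and are not replicates. Of 61 members with GC up to 42%, 60 were below 0 (98.4%), against 75.9% of all tested genes in that range. Of 27 members with GC above 50%, 12 were below 0 (44.4%), against 35.3% of all such genes. The GC limits were set after values were seen. When every library was corrected for GC content and length, the members' median went from -0.23 to -0.15 with 111 below 0 (79.3%), while all genes stood at -0.02 with 52.9% below 0. Of the members with GC up to 42%, 49 of 61 (80.3%) were then below 0, against 52.5% of all such genes. Above 50% they were 22 of 27 (81.5%), against 53.3%. The other protein-coding genes of the long arm went from 0.15 to 0.02. ZNF470 was at -0.84 after correction (edgeR, adjusted p = 0.0380).

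Values are given next by KRAB match, without a test of the difference. An own pattern for the KRAB A box, rewritten after earlier versions matched too few genes, was found in the longest protein of 107 members (76.4%). It misses some known KRAB proteins such as ZNF180 and ZNF461. Among tested ZNF genes elsewhere, it matched 44 of 52 on the chromosome 19 short arm and 81 of 233 on other chromosomes. Protein-coding genes with symbols outside the ZNF, ZFP, ZKSCAN, ZIM and ZIK names matched in 0.15% of cases. The 107 had a median of -0.27 with 97 below 0, and 35 were lower (32.7%) and 0 higher without overlap. The other 33 had a median of -0.01 with 17 below 0, and 6 were lower (18.2%) and 4 higher (12.1%) without overlap. Over all tested genes these shares were 9.58% lower and 11.5% higher. Median GC content was 42.2% in the first and 57.8% in the second set. After the GC and length correction the medians were -0.18 and -0.06. Proteins above the median of 12 finger matches had a median of -0.28 (68 genes) and the rest -0.13 (72 genes), and the correlation of finger number with log2 fold change was -0.300 (Spearman, 140 genes, a description).

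**Figure D5:**
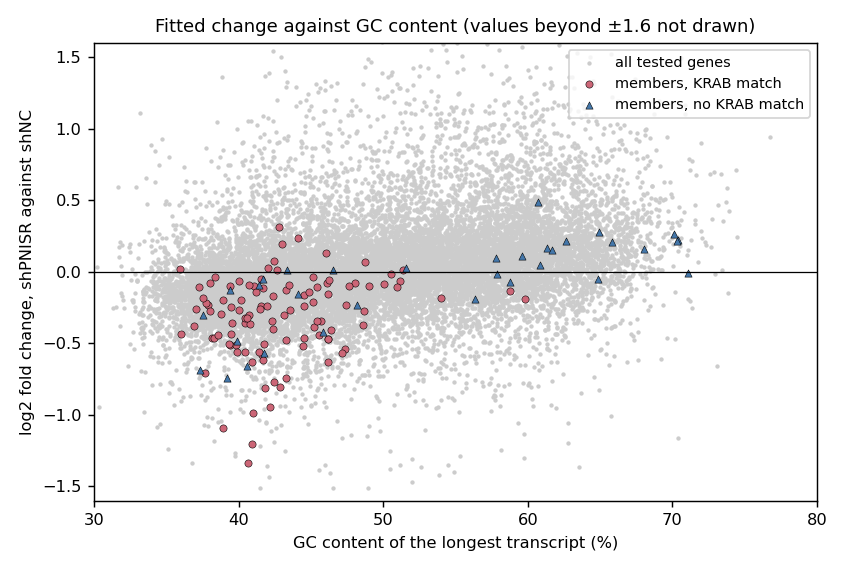
Log2 fold change of each tested gene against the GC content of its longest transcript. Grey points are all tested genes, red circles members with a KRAB match and blue triangles members without one. Members with GC up to 42% lie below 0 in 60 of 61 cases before the GC and length correction. The members without a KRAB match extend to the GC-rich right side.

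Near-identical relatives and overlapping genes limit what counts of single members mean. Exons of 84 members overlap those of another gene, 50 of them on the opposite strand and 50 on the same strand, some on both. With a strand setting not given in the sources used here, reads of opposite-strand overlaps cannot be told apart. Those on the same strand could not be told apart by any strand setting. In 25 members at least 10% of 64-base words recur in other genes, and these had a median of -0.23 with 18 below 0. The 76 members with under 1% had a median of -0.16 with 61 below 0. A word also counted as recurring where another gene is annotated over the same bases. ZNF284, for example, shares exons with AC067968.1 on its own strand. The share therefore mixes overlap at a single locus with likeness between relatives.

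The promoters of the 5 members with the smallest p shared a stretch of letters. RefSeq promoter windows (GRCh38.p14) matched 124 of the 140 members, with 168 windows in all, and the 250 bases before the start were searched on both strands. After 13 motifs had been searched, the windows of these 5 were read, and the stretch was seen in all of them. Of all 14-base words of the ZNF470 window it is the one that varies at the fewest positions over the 5. It was then searched in 3 forms, and ACTNNANTTCCCAG, where N is any base and which takes in all 5, is the one used below. Letters of this kind are known from the promoter element bound by ZNF143. The windows are shown because they carry the stretch, given in capitals in either orientation, with the gene's strand read 5′ to 3′ up to the base before the start. The last one, from ZNF841, the highest of the named members, holds no match.
ZNF470, chr19:56567218-56567467, plus strand: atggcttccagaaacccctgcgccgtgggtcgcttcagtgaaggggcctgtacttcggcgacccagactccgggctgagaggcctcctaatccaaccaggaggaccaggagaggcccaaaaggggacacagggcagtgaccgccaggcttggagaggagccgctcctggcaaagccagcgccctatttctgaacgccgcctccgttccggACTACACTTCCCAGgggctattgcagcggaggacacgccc
ZNF260, chr19:36528272-36528521, minus strand: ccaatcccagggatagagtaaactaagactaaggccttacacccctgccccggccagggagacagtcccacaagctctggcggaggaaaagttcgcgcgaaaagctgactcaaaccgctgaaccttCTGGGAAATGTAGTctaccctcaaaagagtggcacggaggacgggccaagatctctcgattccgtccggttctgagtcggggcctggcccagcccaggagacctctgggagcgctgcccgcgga
ZNF850, chr19:36772808-36773057, minus strand: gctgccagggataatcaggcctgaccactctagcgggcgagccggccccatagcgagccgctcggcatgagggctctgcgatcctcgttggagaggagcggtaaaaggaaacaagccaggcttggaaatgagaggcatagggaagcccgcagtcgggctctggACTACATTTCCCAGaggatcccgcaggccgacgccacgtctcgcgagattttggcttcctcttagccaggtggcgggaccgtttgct
ZNF234, chr19:44141304-44141553, plus strand: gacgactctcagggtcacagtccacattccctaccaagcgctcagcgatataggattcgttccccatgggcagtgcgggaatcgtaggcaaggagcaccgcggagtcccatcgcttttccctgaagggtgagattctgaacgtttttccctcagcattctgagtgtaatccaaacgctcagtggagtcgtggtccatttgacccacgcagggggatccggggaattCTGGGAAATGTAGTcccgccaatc
ZNF780A, chr19:40090944-40091193, minus strand: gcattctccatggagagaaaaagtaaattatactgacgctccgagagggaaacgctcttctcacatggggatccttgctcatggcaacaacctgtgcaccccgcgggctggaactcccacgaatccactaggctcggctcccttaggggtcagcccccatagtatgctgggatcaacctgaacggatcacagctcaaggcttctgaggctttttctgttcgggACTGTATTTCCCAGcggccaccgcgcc
ZNF841, chr19:52095766-52096015, minus strand: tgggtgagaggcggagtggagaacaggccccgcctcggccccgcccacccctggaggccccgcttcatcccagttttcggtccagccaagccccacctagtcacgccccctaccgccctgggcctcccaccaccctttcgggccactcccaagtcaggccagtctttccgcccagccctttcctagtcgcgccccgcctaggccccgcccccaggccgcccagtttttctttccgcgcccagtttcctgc

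In those windows the stretch reads forward in ZNF470, ZNF850 and ZNF780A and in reverse in ZNF260 and ZNF234. It was found in 32 of 168 member windows and in 0.618% of all 35116 windows. Clusters differed widely: 57.1% of windows in cluster 7 and 29.5% in cluster 4 held it, against 2.78% in cluster 10 and 5.77% in cluster 11. The 38 matches in 31 members lay a median of 56 bases before the start, from 12 to 236, with 31 of them within 100 bases, 18 forward and 20 in reverse. The narrower forms ACTACANTTCCCAG and ACTACANTTCCC were in 14.3% and 17.3% of member windows, against 0.444% and 0.746% of all windows.

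Members with the stretch had a median log2 fold change of -0.38 with 30 of 31 below 0, and the 93 matched members without it had -0.19 with 73 below 0. The form was picked from the members with the smallest p, all of them below 0, so part of that gap was built in, and it has no test. The members with the lowest fold changes, ZNF808, ZNF836 and ZNF525, hold no match. After the GC and length correction the medians were -0.27 and -0.13. Cluster 10 had low values with hardly any match: its 23 matched members without the stretch had a median of -0.30 with 21 below 0. Among other tested protein-coding genes, 137 with the stretch had a median of -0.05 and 10648 without it -0.02. Of ZNF genes on other chromosomes, 11 with the stretch had a median of -0.31 with 9 below 0. The 183 without it had -0.19 with 153 below 0. On the chromosome 19 short arm, 1 ZNF gene with the stretch stood at -0.05, and 48 without it had a median of -0.24.

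The 13 motifs tried first showed other contrasts. CCGGAAG was in 27.4% of member windows against 8.52% of all windows, and in 48.1% of those of cluster 11. CACTTCCGG, which overlaps the reverse complement of that motif, was in 5.36% against 1.85%. TATAAA was rarer in members, at 1.79% against 10.7%. GGGCGG was in 52.4% against 42.6%, and CCAAT in 35.1% against 32.0%. The NRF1 palindrome with a free middle base was in 10.1% against 5.07%, and with its usual base in 2.38% against 1.03%. The YY1 core GCCATNTT was in 7.74% against 3.86%, GCCATCTT in 4.76% against 1.36%, and a longer YY1 element, whose reverse complement contains the latter, in 1.19% against 0.248%. The rest were TGACGTCA (1.79% against 1.65%), the BANP palindrome (0.595% against 0.373%) and a ZNF143 element that is one spelling of the stretch above (1.19% against 0.219%). A match says only that the letters are there.

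KRAB zinc finger proteins act through a shared silencing machinery, whose genes were listed apart from the members. Of 32 tested genes of that list, 2 fell and 0 rose, against 0.832% lower and 2.3% higher of all tested genes, and 23 were below 0, against 52.1% of all, with a median of -0.15. DNMT3B, a de novo DNA methyltransferase, was at 34.8, 38.0 and 30.8 CPM in shNC and 23.3, 17.6 and 22.4 CPM in shPNISR. It fell by 0.71 on the log2 scale with no overlap between the groups (SE 0.14, edgeR, adjusted p = 0.00951). HDAC1, a histone deacetylase, was at 411, 412 and 433 CPM against 317, 316 and 273 CPM. It fell by 0.47 on the log2 scale (SE 0.11, edgeR, adjusted p = 0.0224), and that call ended without shNC 1, shPNISR 1 or shPNISR 3 (adjusted p up to 0.100).

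TRIM28, the corepressor itself, did not pass. It was at 665, 585 and 641 CPM in shNC and 675, 662 and 599 CPM in shPNISR, with overlap and a fitted value of 0.03 ± 0.11 that changed sign after the GC and length correction (-0.16). SETDB1 was at 77.0 ± 9.45 and 73.4 ± 8.80 CPM. ATF7IP, the partner of SETDB1, was at 55.8 ± 5.16 CPM against 42.5 ± 5.99 CPM (edgeR, adjusted p = 0.109), and CBX1, a heterochromatin protein, at 187 ± 10.8 CPM against 151 ± 10.1 CPM (edgeR, adjusted p = 0.122). Neither passed. Without shNC 2 the list had 3 lower and 0 higher, CBX3 being the addition, while 4.52% of all genes in that fit were lower and 7.78% higher.

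Genes derived from endogenous retroviruses, or associated with an element of one as the HHLA genes are, were listed together and were few in these counts. KRAB zinc finger proteins bind retroviral sequences. Of 12 listed, 6 were tested, 1 rose and 0 fell, against 2.3% and 0.832% of all tested genes. The gene that rose was HHLA2, and no tested gene with an ERV symbol passed in that fit. HHLA2, an immune checkpoint ligand whose gene holds a retroviral element, rose from 4.14, 3.88 and 3.26 CPM to 6.40, 6.95 and 7.24 CPM, without overlap (log2 fold change 0.86 ± 0.21, edgeR, adjusted p = 0.0284). Without shNC 2 there were 2 higher (HHLA2 and ERVH48-1) and 2 lower (ERVK3-1 and ERVK13-1), against 7.78% and 4.52% of all genes in that fit. ERVFRD-1, ERVW-1 and HHLA1 had 0 reads in every library.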

How the data were processed

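Whole-number read counts per gene were deposited by the authors for 60664 Ensembl gene IDs in 6 libraries and were not normalized. Alignment tool and build are HISAT2 2.0.4 and GRCh38, per the submitters' processing notes. The counter, annotation and strand setting were not given in the sources used here. Positions, exon lengths, GC content, coding sequences and overlaps came from GENCODE release 29.

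Genes were filtered with filterByExpr (minimum count 10, minimum total 15), scaled with TMM factors and fitted in R 4.3.3 with edgeR 4.0.16. Groups were compared by its two-sided quasi-likelihood test (robust), with Benjamini-Hochberg adjusted p under 0.05 over all 16102 tested genes. Standard errors follow from fold change and test statistic. Alternatives were other scalings and filters, DESeq2 1.42.0, limma 3.58.1 voom, a non-robust fit, the replicate number as a block, a loess correction (span 0.4) for GC content and exon length in every library, leaving out each library, and other floors and symbol rules. On data simulated for shPNISR against shNC over 15870 genes, the test found 87 of 100 genes simulated at 2-fold, 46 of 100 at 1.5-fold, and called 3 unchanged genes. The genes simulated as changed all had a mean above 2 CPM, so these rates do not cover members below that level.

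The rule for named genes takes PNISR, every member that passes, the members with the 5 highest and 5 lowest fold changes at a mean of at least 1 CPM, the top gene per exon length of each cluster, 2 members just inside and 2 genes just outside the floor, and of the silencing list 4 with the smallest adjusted p and 2 with the highest CPM. The members and lists were chosen with earlier results of these data known. The KRAB pattern, GC limits, finger split, shared-sequence limits and promoter motifs were set after values were seen. Fingers were counted as 2 cysteines 2 to 4 residues apart, 12 residues, and 2 histidines 3 to 5 residues apart. Libraries of a group differed beyond sampling noise (chi-square per degree of freedom 8.99 to 20.6), so all 6 were kept as separate replicates. Figures were drawn with matplotlib 3.10.9.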

Additional observations from a re-analysis of the deposited data

How the results depend on the processing

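No member was called higher under any alternative run, and the members' median stayed below 0 in all of them, from -0.32 to -0.143. The number of members called lower, 1 in the reported fit, was 6 with no low-count filter (1.2% of all genes), 5 by DESeq2, 2 by limma voom, 3 with the replicate block (0.733% of all genes), 0 with that block plus the GC and length correction (0.919%), and 13 with shNC 2 left out plus that correction (6.44%). Leaving out 1 library gave 0 to 13, and medians of -0.32 to -0.169. The median was -0.151 after the GC and length correction and -0.143 with the replicate block added. Replicate numbers do not pair the libraries (correlations of same-numbered deviations 0.119, -0.0814 and -0.15). The number of clusters was 14 at a gap of 500000 bases and 4 at 2000000.

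Signs turned for named genes that did not pass. After the GC and length correction the values were -0.158 for TRIM28, -0.0364 for ZNF428, 0.0275 for ZNF507, -0.064 for ZNF581, -0.0493 for ZNF628 and -0.0295 for ZNF837. With the replicate block added they were -0.152, -0.0368, 0.0223, -0.0449, -0.0491 and -0.0317. With that correction and shNC 2 left out, TRIM28 stood at -0.25, ZNF146 at 0.00822, ZNF428 at -0.124, ZNF507 at 0.0326, ZNF628 at -0.169 and ZNF837 at -0.0772. Leaving out 1 library gave -0.0206 to 0.0849 for TRIM28, -0.28 to 0.187 for ZNF114, -0.127 to 0.0435 for ZNF30, -0.261 to 0.234 for ZNF404, -0.128 to 0.084 for ZNF526 and -0.0129 to 0.34 for ZNF581. Upper-quartile factors gave 0.00904 for ZNF526. The cause was not tested.

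At the depth of these libraries members near the floor rest on about 10 reads. Simulated 1.5-fold changes were recovered in fewer than 50 of 100 genes, although genes at the lowest levels were left out of them. A p above the threshold therefore does not show that a member did not differ.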
